A study of Mus musculus with 15 samples.

Results

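Freshly isolated mouse dental mesenchymal cells (mDMCs, 0 h, 3 libraries) were compared with mDMCs kept in culture for 48 h (3 libraries), over all transcripts of the deposited table. These 6 libraries were chosen by their labels from a series of 15. The 0 h cells came from ICR mouse embryos at embryonic day 14.5. The mandibular first molar mesenchyme was freed from its epithelium with dispase and dispersed with trypsin. The 48 h cells were prepared in the same way and plated in DMEM with fetal bovine serum (FBS), and the labels give no genetic change or test agent for either group. The series also holds mDMCs cultured for 12 h (2 libraries), 24 h (3) and 36 h (3), which give the course of each change, and 1 library of undissociated dental mesenchyme, which has no replicate. In the study, cells cultured for 24 h still formed teeth, less often than fresh cells, and cells cultured for 48 h no longer did. The comparison asks which genes differed between freshly isolated cells and the time without this ability. It thus spans a time in culture at which the ability was still present. The labels do not say whether replicates came from separate litters or cultures, so the p-values measure the spread between these libraries, which may be technical.

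The dental mesenchyme is neural crest derived tissue that condenses under the tooth epithelium and instructs it to form a tooth. It does so through exchanged Wnt, Bmp, Fgf and Hedgehog signals and through homeobox, Pax and Lim transcription factors that respond to them. When embryonic mesenchyme is dispersed and plated on plastic in serum, cells lose contact with epithelium and matrix, spread and build actin stress fibres.

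Values are whole-number expression scores, and all libraries share 1 distribution, with a median of 721, quartiles of 248 or 249 and 1676 and a largest score of 127101. A score is therefore close to a rank within its library, several transcripts can hold exactly the same score, and the read depth is unknown. Scores are not known to be corrected for transcript length, so levels are compared between libraries. Where genes are ranked or called high or low by score, the order is of scores and not of transcript amounts. Changes are given as log2 of (score + 1) at 48 h minus 0 h, a scale that understates the change of low scores, with the standard error (SE) of the limma fit. Of the 12079 transcripts tested, 3863 (32.0%) were called, which means a Benjamini-Hochberg adjusted p below 0.05 and a fold above 2. Of these, 1949 (16.1%) were higher and 1914 (15.8%) lower at 48 h, and the median change over all transcripts tested was 0.03. Since all libraries share 1 distribution, the near balance of rises and falls and the small median change follow in part from the scale. At any fold, 4487 (37.1%) were higher and 4112 (34.0%) lower by the adjusted p alone, and a fold above 8 was reached by 370 called higher (3.06%) and 384 called lower (3.18%). All 3 libraries at 48 h lay above all 3 at 0 h in 4509 transcripts (37.3%) and below them in 4175 (34.6%). With so many transcripts called, the shares of gene groups are read against these background shares.

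The labelled cell type was checked with 7 genes of the dental and facial mesenchyme, and all 7 were measured in every library at both times. Barx1, a homeobox factor of the molar field, scored 2837, 3165 and 3050 at 0 h and 1454, 2103 and 1737 at 48 h, a log2 change of -0.79 (SE 0.11) that did not reach the fold for a call. Msx1 (-0.58, SE 0.08) and Twist1 (-0.81), both mesenchymal transcription factors, also stayed below that fold, while Lhx6 (-1.60), Pax9 (-2.37) and Pdgfra (-2.69, SE 0.08) were lower and Vim, the intermediate filament of mesenchymal cells, was higher (1.18, SE 0.24). Some freshly isolated libraries stood apart. Epithelial markers summed to 17696 in 0 h replicate 1 but 2287 and 2086 in the other two, and immediate early genes summed to 62975, 134851 and 266689 in replicates 1 to 3. Results on these sets are given below also without the library concerned.

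A stricter class was drawn from the called transcripts to describe those that passed from low to high or from high to low within their library. A transcript was counted as switched on if all 3 libraries at 0 h lay below their lower quartile and all 3 at 48 h above the median, and as switched off in the opposite case. There were 104 transcripts switched on (0.861% of those tested) and 118 switched off (0.977%). The class is defined by the same scores, so its size and its changes are a description. Log2 changes ran from 1.96 to 9.69 with a median of 4.38 among transcripts switched on. Among those switched off the median was -3.94. At the edge of the fold used for a call, Thumpd3 (382, 280 and 255 at 0 h, 547, 647 and 620 at 48 h) was just inside it and Cwc27 (418, 364 and 323, then 775, 735 and 690) just outside. On the falling side Cep68 (1889, 1711 and 1788, then 919, 897 and 874) was just inside, and Ncapd2 (3863, 3634 and 3697, then 1678, 2028 and 1906) just outside.

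**Figure D1:**
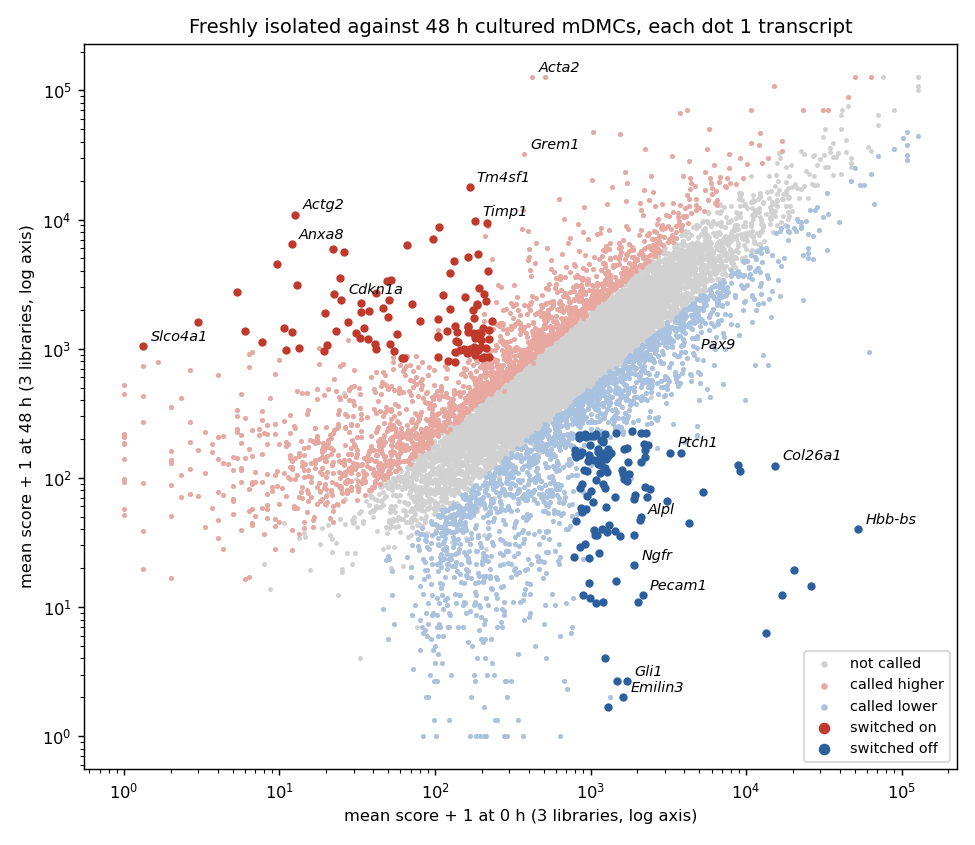
Mean score + 1 at 0 h (x axis) against 48 h (y axis), both on log axes and each over 3 libraries, with 1 dot per transcript. The 104 transcripts switched on (red) lie at the upper left and the 118 switched off (blue) at the lower right, while Acta2 reaches the largest score of 127101 at 48 h.

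The largest rises included genes of the smooth muscle contractile apparatus. Actg2, the enteric smooth muscle actin (chr6:83512905-83536265, minus strand, 9 exons), scored 11, 12 and 12 at 0 h and 5142, 15046 and 12458 at 48 h, a log2 change of 9.61 (SE 0.32, adjusted p = 9.9e-11). Every 48 h library was above every 0 h library, and the tissue, at 32, was close to the 0 h cells. Cnn1, or calponin, which binds actin and slows myosin, scored 2 in all 3 libraries at 0 h and 966, 2425 and 1427 at 48 h (log2 8.96, SE 0.34, adjusted p = 2.9e-10). Lmod1, which nucleates actin filaments in smooth muscle, went from 19, 18 and 19 to 1400, 2463 and 1803 (6.55, SE 0.23). All 3 of these were switched on. Acta2, smooth muscle alpha actin, was already expressed at 0 h (543, 403 and 304) and stood at the largest possible score of 127101 in every cultured library, and Tagln, an actin-binding protein of the same cells, did the same from 486, 545 and 486. Their changes of 8.29 (SE 0.16) and 7.97 (SE 0.09) are thus limited by the ceiling of the scale.

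Most of the list of contractile and focal adhesion genes was higher. Of its 20 members, all measured, 18 were higher (90% against the background of 16.1%), none was lower, and the median change was 2.59 against 0.03 over all transcripts. Caldesmon (Cald1, 3.13), tropomyosin 1 (Tpm1, 2.80), non-muscle myosin heavy chain 9 (Myh9, 2.72) and vinculin (Vcl, 2.70), which links actin to integrin adhesions, were among them. Srf, the transcription factor that drives many of these genes, had a change of 0.07 and was not called, and neither was the myosin kinase Mylk (-0.78). Lims2, an adaptor of integrin adhesions outside the list, rose from 1, 0 and 0 to 352, 564 and 382 (8.40, SE 0.33). Skeletal muscle markers were followed beside them, and 2 of the 8 measured (Acta1 at 4.40 and Tnni1 at 2.48) were higher, or 25% beside the background of 16.1%. Tnni1 lost its call without 0 h replicate 3 (1.98), 48 h replicate 1 (2.21) or 48 h replicate 2 (2.42), while 5 of the 8 markers were higher with the replicate number as a block. The summed score of these 8 was 441 to 1815 at 0 h, 1386 to 2887 at 48 h and 9303 in the tissue.

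**Figure D2:**
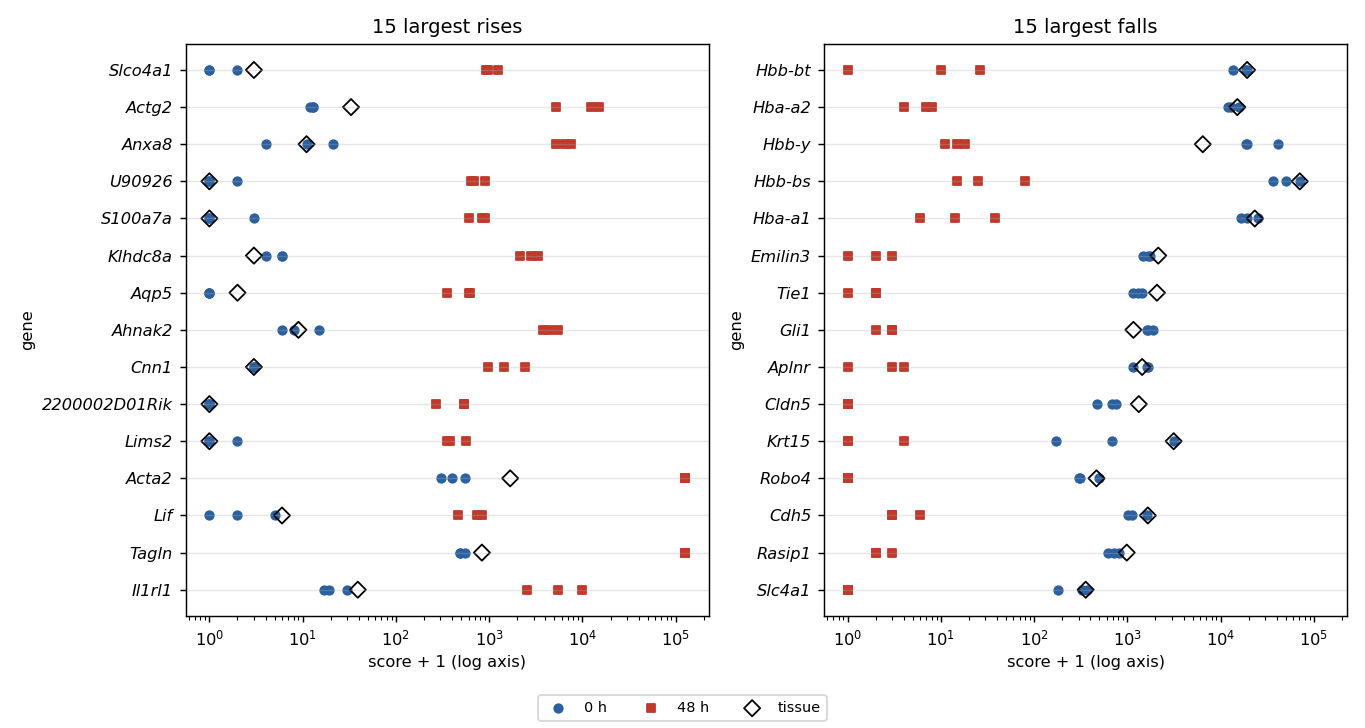
Score + 1 (log axis) of the 15 largest rises (left) and 15 largest falls (right), with 1 dot per library at 0 h (blue circles) and 48 h (red squares) and the tissue library as an open diamond. The 30 genes were picked among those whose 0 h and 48 h libraries do not overlap, and the tissue lies nearer to the 0 h cells than to the 48 h cells.

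Anxa8, Slco4a1, Aqp5 and S100a7a were also among the largest rises. Anxa8, an annexin (chr14:34085981-34100571, plus strand), scored 20, 3 and 10 at 0 h and 5224, 7604 and 6499 at 48 h, a change of 9.35 (SE 0.47, adjusted p = 2.7e-09). Anxa3 rose from 229, 237 and 178 to 8488, 10055 and 9574 (5.45, SE 0.13). Across the annexin family, a set chosen after its values were seen, 7 of 9 tested members were higher and none lower, beside 16.1% and 15.8% over all transcripts. Slco4a1, an organic anion transporter that carries thyroid hormone (chr2:180456245-180474867, plus strand, 12 exons), was at 1, 0 and 0 at 0 h and at 1239, 924 and 979 at 48 h. Its log2 change of 9.69 (SE 0.25) was the highest of all called transcripts, and like those of other genes near 0 it depends on the pseudocount. The water channel Aqp5 was listed at 0 in all 3 libraries at 0 h and at 614, 349 and 599 at 48 h. S100a7a, a small calcium-binding protein of the S100 family, went from 2, 0 and 0 to 905, 608 and 832 (9.06).

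Other genes of this group have less well described roles. Klhdc8a, a kelch repeat protein (chr1:132298626-132307357, plus strand), went from 5, 5 and 3 to 3358, 2130 and 2788 (9.02, SE 0.18). The large scaffold protein Ahnak2 went from 7, 5 and 14 to 5533, 3749 and 4401 (8.97, SE 0.28). U90926 was at 0, 0 and 1 and then at 639, 685 and 895 (9.18), and 2200002D01Rik was listed at 0 in all 3 libraries at 0 h and at 268, 539 and 535 at 48 h. Like all of the largest rises and falls named, they were picked among called transcripts with a gene symbol and without overlap. Tm4sf1, a small membrane protein with 4 spans related to the tetraspanins, rose from 164, 212 and 122 to 23229, 13670 and 16524 (6.74, SE 0.23).

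The 8 switched on transcripts named for their 48 h mean included the secreted proteins Timp1, Tnfrsf11b, Cemip and Ltbp2. Timp1, an inhibitor of matrix metalloproteinases (chrX:20870166-20874733, plus strand, 6 exons), scored 154, 189 and 197 at 0 h and 12916, 7867 and 8254 at 48 h, a change of 5.71 (SE 0.19, adjusted p = 7.7e-11). Tnfrsf11b, or osteoprotegerin, the decoy receptor that blocks osteoclast formation, rose from 84, 137 and 69 to 4115, 8107 and 8959 (6.16, SE 0.28). The groups were fully apart in both genes. Cemip, which takes part in hyaluronan breakdown, rose from 73, 65 and 56 to 7565, 6169 and 5462 (6.60, SE 0.17). Ltbp2, a protein of elastic microfibrils, rose from 65, 168 and 81 to 9610, 9217 and 7424 (6.49, SE 0.27).

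The urokinase receptor and its ligand, which make plasmin at the cell surface, and tissue factor rose, and the 2 of these that were switched on are given with their promoters. Plaur, the receptor that holds urokinase at the membrane, scored 32, 53 and 50 at 0 h and 1404, 2055 and 2743 at 48 h (5.47, SE 0.25, adjusted p = 1.3e-09). F3, tissue factor, which starts blood clotting, scored 80, 142 and 172 and then 4680, 5100 and 4631 (5.25, SE 0.22). Urokinase itself (Plau, 465, 480 and 387 at 0 h, 6197, 6197 and 7223 at 48 h, change 3.88, SE 0.10) rose as well. In all 3 genes the 48 h libraries lay above those at 0 h. The 22 matrix proteases and inhibitors were all measured, with 12 higher, 5 lower (backgrounds 16.1% and 15.8% of transcripts) and a median change of 1.52, or 0.95 with 1 ppm required in each of the 14 libraries. Mmp3 rose (4.39) from scores of 6, 8 and 11 to 354, 98 and 196, and Mmp10, another stromelysin, was listed at 0 in all 3 libraries at 0 h and at 307, 107 and 232 at 48 h. Mmp9, which cuts type IV collagen and gelatin, went the other way and was switched off (1623, 1858 and 2892, then 36, 39 and 72, change -5.43, SE 0.32).

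Promoters were searched for 8 motifs in the 250 bases before the RefSeq start site on both strands, for the 8314 tested transcripts whose own start lay within 500 bases of it. The letters TGANTCA, bound by AP-1 factors of the Fos and Jun families and read alike on both strands, were found in 10 of the 75 promoters switched on that could be searched (13.3%) and in 3 of the 73 switched off (4.11%). Over all 8314 promoters the share was 3.80%, and over the 1346 called higher it was 7.13%. These are shares of letters in a window, without a test, and say nothing on binding. The CArG box, the site of Srf, was found in 1.11% of all promoters, 2.53% of those called higher, 2.67% of those switched on (2 promoters) and none of those switched off. Of the others, the core decamer of the p53 site was found in 5.79% of all promoters, 6.67% of those switched on and 8.22% of those switched off. In the same order, the shares were 5.92%, 6.67% and 8.22% for TATAAA and 37.1%, 29.3% and 35.6% for CCAAT. They were 10.3%, 13.3% and 6.85% for GGAATG, the site of Tead factors, and 4.98%, 4% and 8.22% for AGATAA, a site of Gata factors. The 3 switched on promoters with TGANTCA and the highest 48 h scores were those of F3 (chr3:121723287-121723536, plus strand, 2 matches), Plaur (chr7:24462233-24462482, plus strand, 1 match) and Ifitm3 (chr7:141010745-141010994, minus strand, 1 match), an interferon-induced antiviral membrane protein that scored 89, 161 and 151 at 0 h and 1333, 1416 and 1733 at 48 h. They are printed 5′ to 3′ from RefSeq on GRCm38.p6 with TGANTCA in capitals. For contrast, the promoter of Hbb-bt, the beta globin with the greatest fall, is printed below them with its CCAAT and TATAAA boxes in capitals (chr7:103813924-103814173, minus strand).
F3: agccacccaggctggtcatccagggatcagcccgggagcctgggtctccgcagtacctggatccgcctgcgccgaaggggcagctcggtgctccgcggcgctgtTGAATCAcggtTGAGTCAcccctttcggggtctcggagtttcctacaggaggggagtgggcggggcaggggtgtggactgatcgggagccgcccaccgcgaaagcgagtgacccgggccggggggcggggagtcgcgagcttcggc
Plaur: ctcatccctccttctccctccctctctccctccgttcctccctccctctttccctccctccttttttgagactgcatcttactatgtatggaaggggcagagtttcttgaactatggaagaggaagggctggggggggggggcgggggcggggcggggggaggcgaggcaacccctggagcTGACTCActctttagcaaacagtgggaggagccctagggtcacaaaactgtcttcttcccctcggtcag
Ifitm3: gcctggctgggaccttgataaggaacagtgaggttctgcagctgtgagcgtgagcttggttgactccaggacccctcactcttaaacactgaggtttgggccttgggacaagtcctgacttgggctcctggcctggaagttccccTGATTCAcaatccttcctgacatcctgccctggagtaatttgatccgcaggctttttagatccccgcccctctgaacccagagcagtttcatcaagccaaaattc
Hbb-bt: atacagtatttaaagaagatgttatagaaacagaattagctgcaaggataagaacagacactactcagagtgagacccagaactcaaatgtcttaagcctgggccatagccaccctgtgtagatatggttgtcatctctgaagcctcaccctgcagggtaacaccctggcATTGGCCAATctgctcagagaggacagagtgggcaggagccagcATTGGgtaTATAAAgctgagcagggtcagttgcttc

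Several cytokines, growth factors and a cytokine receptor rose from scores near 0, and Ereg and Il1rl1 were switched on. Lif, a cytokine of the interleukin 6 family that keeps mouse stem cells undifferentiated, scored 1, 0 and 4 at 0 h and 732, 461 and 839 at 48 h (8.25, SE 0.43). Ereg, a ligand of the Egf receptor, went from 4, 14 and 11 to 1362, 1220 and 1738 (7.21, SE 0.35). Il1rl1, the receptor of interleukin 33, went from 16, 18 and 29 to 9804, 2566 and 5430 (7.92, SE 0.47), with a wide spread at 48 h but no overlap. Of the 16 measured cytokines and chemokines of a list of 23, 9 were higher (56.25% against 16.1%) and the median change was 2.96. The 2 that were lower (Cxcl1 at -1.67 and Cxcl5 at -1.50) made up 12.5%, near the background of 15.8%. With 1 ppm required in each of the 14 libraries 2 were higher and 1 lower, with a median of -0.05, since that filter removes members near 0 at 0 h. Ccl2, which attracts monocytes, rose from 16, 33 and 22 to 746, 680 and 761 (4.94, SE 0.25). Csf1 (3.25), the growth factor of macrophages, and the Egf receptor ligands Areg (4.30) and Hbegf (3.18) rose too. With under 80% of the list measured, its count describes the measured members alone.

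Most of the listed genes induced by p53 were higher at 48 h. Cdkn1a, the cyclin-dependent kinase inhibitor p21 (chr17:29090979-29099701, plus strand), scored 16, 17 and 39 at 0 h and 2351, 2460 and 2369 at 48 h, a change of 6.70 (SE 0.27, adjusted p = 5.2e-10). Its mean climbed through 386.5 (12 h), 1224 (24 h) and 2389 (36 h). Of 25 p53 targets, all measured, 20 were higher (80% against 16.1%), 3 were lower (12% against 15.8%) and the median change was 2.90. Ccng1 (1135, 1085 and 902 at 0 h, 50500, 40680 and 50500 at 48 h, change 5.50, SE 0.11) and Mdm2, the ubiquitin ligase that targets p53 itself (940, 1360 and 1505, then 13266, 11567 and 15054, change 3.41), reached high scores. Gdf15 stayed low (0, 0 and 1, then 59, 84 and 126, change 6.10) and the pro-apoptotic Pmaip1 was switched on (5.89). The death receptor Eda2r (153, 153 and 181, then 5721, 4869 and 4869, change 4.98) and the DNA polymerase Polk (205, 205 and 228, then 2334, 2275 and 2440, change 3.46) were switched on as well. Sesn1 (-1.68), Ddb2 (-1.20) and Btg2 (-1.27) were lower. The call of Btg2, which is also an immediate early gene, was lost without 0 h replicate 3 (-0.80).

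Proliferation genes were lower or not called. None of 25 genes of DNA replication and mitosis was higher and 9 were lower (36% against 15.8%), with a median change of -0.65. By the adjusted p at any fold 2 were higher and 19 lower, beside 37.1% and 34.0% of all transcripts. Mki67, the marker of cycling cells (-2.05), cyclin B2 (-1.70), topoisomerase 2a (-1.59) and the replication helicase subunit Mcm6 (-1.41) were among the 9. Of 15 genes of the amino acid stress response, 9 were higher (60% against 16.1%), or 5 with 1 ppm required in each of the 14 libraries. Among the 9 were Stc2 (30, 10 and 11 at 0 h, 1438, 599 and 1013 at 48 h, change 5.90), Trib3 (4.71), Chac1 (3.85) and Nupr1 (3.38), all targets of the Atf4 arm. In this list 1 was lower (Vldlr, -1.16, but -0.84 and not called without 48 h replicate 2). Of 14 measured targets of Nrf2, the regulator of the oxidative stress response, 8 were higher (57.1% against 16.1%), 1 was lower (Tkt, -1.57) and the median was 1.15. Hmox1, which breaks down haem, was switched on (190, 245 and 217, then 2235, 2921 and 6934, change 4.04, SE 0.34), as was malic enzyme Me1 (3.47). Of 17 sterol synthesis genes, none was higher and 3 were lower (17.6% against 15.8%), or 5 without 0 h replicate 1. By the adjusted p at any fold 11 of the 17 were lower and 1 higher, beside 34.0% and 37.1% of all transcripts. The summed score of the 17 was 74706 to 99339 at 0 h and 39615 to 52958 at 48 h.

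Gli1 and Ptch1, both of the Hedgehog pathway, were switched off. Gli1, the transcription factor whose own transcription reports Hedgehog signalling (chr10:127329882-127341974, minus strand, 13 exons), scored 1608, 1888 and 1650 at 0 h and 2, 2 and 1 at 48 h, a change of -9.35 (SE 0.52, adjusted p = 7.9e-09). Its mean was already 23 at 12 h and 4.67 at 24 h, against 1158 in the tissue. Ptch1, the Hedgehog receptor and also a target of the pathway (chr13:63508328-63565735, minus strand), fell from 2235, 3681 and 3848 to 161, 168 and 137 (-4.34, SE 0.18, adjusted p = 4.9e-10). In both genes the groups did not overlap. Hhip (-1.64), a further target that binds the ligand, and the pathway members Gli2 (-1.57), Gli3 (-1.40) and Smo (-1.05) were lower by less. These 6 genes stand in wider lists and were picked by name, with no Hedgehog list behind them. The bases GACCACCCA, the core site of Gli factors, were found in 0.180% of all promoters and in none of the 73 promoters switched off that could be searched.

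Of 30 measured dental mesenchyme transcription factors of a list of 32, 13 were lower (43.3% against 15.8%), none was higher, and the median change was -0.80. Gli1 was the one member that was switched off. Pax9 scored 3850, 4049 and 5959 at 0 h and 619, 1056 and 1023 at 48 h, and Lhx6 scored 3675, 3537 and 4933 and then 1268, 1272 and 1437. Osr2, a zinc finger factor of the palate and the lingual tooth mesenchyme, fell from 700, 900 and 1413 to 121, 140 and 116 (-2.93, SE 0.28). Dlx3 (116, 81 and 83, then 4, 4 and 6, change -4.06), Lef1, the nuclear partner of Wnt signalling (-2.78), and Alx4 (-2.72) fell as well. The other 17 measured members did not reach the fold for a call. By the adjusted p at any fold 19 of the 30 were lower and none higher, beside 34.0% and 37.1% of all transcripts.

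Of 38 signalling genes of the tooth, all measured, 17 were lower (44.7% against 15.8%), 6 were higher (15.8%, near the background of 16.1%) and the median was -0.42, or -0.69 without 0 h replicate 1. Ngfr, the low-affinity neurotrophin receptor known from neural crest cells and dental mesenchyme (chr11:95568818-95587735, minus strand, 6 exons), was switched off. It scored 1839, 2032 and 1828 at 0 h and 18, 21 and 21 at 48 h (-6.50, SE 0.22, adjusted p = 1.1e-10). Fgf3, made by the dental mesenchyme to stimulate the epithelium, fell from 197, 519 and 204 to 0, 2 and 3 (-6.92, SE 0.71), and Bmp7 fell from 350, 200 and 170 to 5, 1 and 0 (-6.65). The Bmp antagonist Chrd (-3.50), the Bmp and Wnt modulator Sostdc1 (-3.51), Bmp3 (-3.82) and the Wnt antagonist Dkk1 (-3.87) were lower.

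The 6 higher members included 3 antagonists of Bmp and activin. Grem1, a secreted Bmp antagonist (chr2:113746164-113758646, minus strand, 2 exons), scored 286, 359 and 465 at 0 h and 36335, 23160 and 36335 at 48 h (6.43, SE 0.20, adjusted p = 6.3e-11). Its score at 0 h lay above the lower quartile, so it was not counted as switched on. Nog rose from 35, 52 and 138 to 684, 991 and 961 (3.76) and Fst, which binds activin, rose by 2.44. Bmp4 itself scored 1326, 1580 and 1436 and then 3906, 5154 and 4272 (1.61, SE 0.12), and the activin subunit Inhba rose by 1.68. Fgf7, a mesenchymal ligand of epithelial Fgf receptors, was switched on from 158, 210 and 203 to 3641, 1862 and 3304 (3.89, SE 0.22). Other receptors and modulators were switched off and were picked here after their values were seen. These were Ntrk2, the receptor of Bdnf (1212, 1326 and 1289, then 33, 34 and 44, change -5.08), the Wnt inhibitors Wif1 (843, 1419 and 1265, then 49, 34 and 34, change -4.87) and Nkd1 (-3.69), the retinoic acid synthesis enzyme Aldh1a2 (1699, 1925 and 1694, then 101, 139 and 80, change -4.08) and the receptor tyrosine kinase Ror1 (-3.22). Bdnf, the ligand of Ntrk2, was switched on (95, 144 and 181, then 1114, 1150 and 1091, change 3.04).

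Several matrix genes fell from scores above the median to below the lower quartile. Emilin3, an extracellular glycoprotein of the elastin microfibril interface family (chr2:160906437-160912317, minus strand), scored 1650, 1757 and 1464 at 0 h and 1, 2 and 0 at 48 h (-9.80, SE 0.44, adjusted p = 1.1e-09). Col26a1, a collagen with short triple helices (chr5:136741759-136883121, minus strand, 13 exons), fell from 13679, 15625 and 16542 to 131, 117 and 121 (-6.94, SE 0.24), with a mean of 755 at 12 h and 13304 in the tissue. Frem1, a protein that anchors the epithelial basement membrane, fell from 6631, 8743 and 12083 to 107, 96 and 131 (-6.32, SE 0.20). In these 3 genes and in Tmem132c, a membrane protein (7565, 9157 and 10049, then 124, 107 and 141, change -6.16, SE 0.18), the groups were fully apart. By family, 21 of 35 collagen chains were lower, 6 higher and 6 switched off (Col9a2, Col13a1, Col15a1, Col23a1, Col25a1 and Col26a1), and 12 of 17 Adamts proteases were lower, 2 higher and 4 switched off. Both families were picked after their values were seen, and over all transcripts 15.8% were lower, 16.1% higher and 0.977% switched off, so that the share of collagen chains called higher was near the background.

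In the list of 24 abundant matrix genes 10 were lower (41.7% against 15.8%) and the median was -0.34. The 5 that were higher made up 20.8%, near the background of 16.1%. The small proteoglycan lumican (Lum) fell from 9812, 15128 and 9424 to 647, 696 and 904 (-3.91, SE 0.22), and elastin (Eln, -3.64), decorin (Dcn, -2.97) and Col6a2 (-2.55) fell too. Lox, the enzyme that cross-links collagen and elastin, rose from 3719, 4470 and 3091 to 127101, 40667 and 31853 (3.88, SE 0.51), with 1 library at the ceiling. Col5a2 (50508 in all 3 libraries at 0 h and the ceiling in all 3 at 48 h, change 1.33, limited by the ceiling), Fbln5 (1.21) and Sparc (1.11) rose too, and Sparc lost its call without 0 h replicate 3 (0.96) or 48 h replicate 1 (0.88). Genes of osteoblasts and odontoblasts were mostly lower, with 6 of 9 measured members (of a list of 12) lower (66.7% against 15.8%). Another 2 were higher (22.2% against 16.1%), and these counts describe the measured members alone. The summed score of the 9 was 9490 to 11299 at 0 h, 8389 to 13906 at 48 h and 26252 in the tissue. The sums at 0 h and 48 h thus overlapped. Alpl, the alkaline phosphatase of mineralizing cells (chr4:137741733-137796384, minus strand), was switched off from 2288, 1988 and 2008 to 65, 27 and 47 (-5.55, SE 0.31, adjusted p = 7.3e-09). Ibsp, or bone sialoprotein (-2.52), Phex (-2.48) and Sp7 (-1.64) were lower, while Spp1, osteopontin, was higher (261, 366 and 235, then 1253, 964 and 2071, change 2.26).

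Immediate early genes, which are induced within minutes by many stimuli, were lower at 48 h in 14 of 24 measured members (58.3% against 15.8%). They were higher in 1 (4.17% against 16.1%), and the median was -1.45. With the replicate number as a block, or without 0 h replicate 2, 0 h replicate 3 or 48 h replicate 2, 2 were higher. Fos scored 16498, 40642 and 127101 at 0 h and 595, 943 and 1312 at 48 h (-5.61, SE 0.52, adjusted p = 7.4e-07), against 15089 in the tissue. Its score in 0 h replicate 3 is the ceiling of the scale, which limits the change and the spread. The groups were apart, and the spread among the 0 h libraries was wide, as it was for Egr1 (2540, 3904 and 8276, then 423, 628 and 915, change -2.80) and Fosb (2671, 5269 and 6623, then 130, 127 and 377, change -4.62). Without 0 h replicate 3 the changes were -4.84 for Fos, -2.33 for Egr1 and -4.34 for Fosb, 12 members were lower and the median was -1.12. Without 0 h replicate 1, 17 members were lower and the median was -1.86. Fosl1, a Fos-related partner of Jun, moved the other way, from 10, 11 and 18 to 375, 335 and 651 (5.0, SE 0.31, adjusted p = 1.8e-08). The summed score of the list in the tissue was 100622, within the range of the 0 h libraries. Whether dissociation raised these genes at 0 h was not tested.

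**Figure D3:**
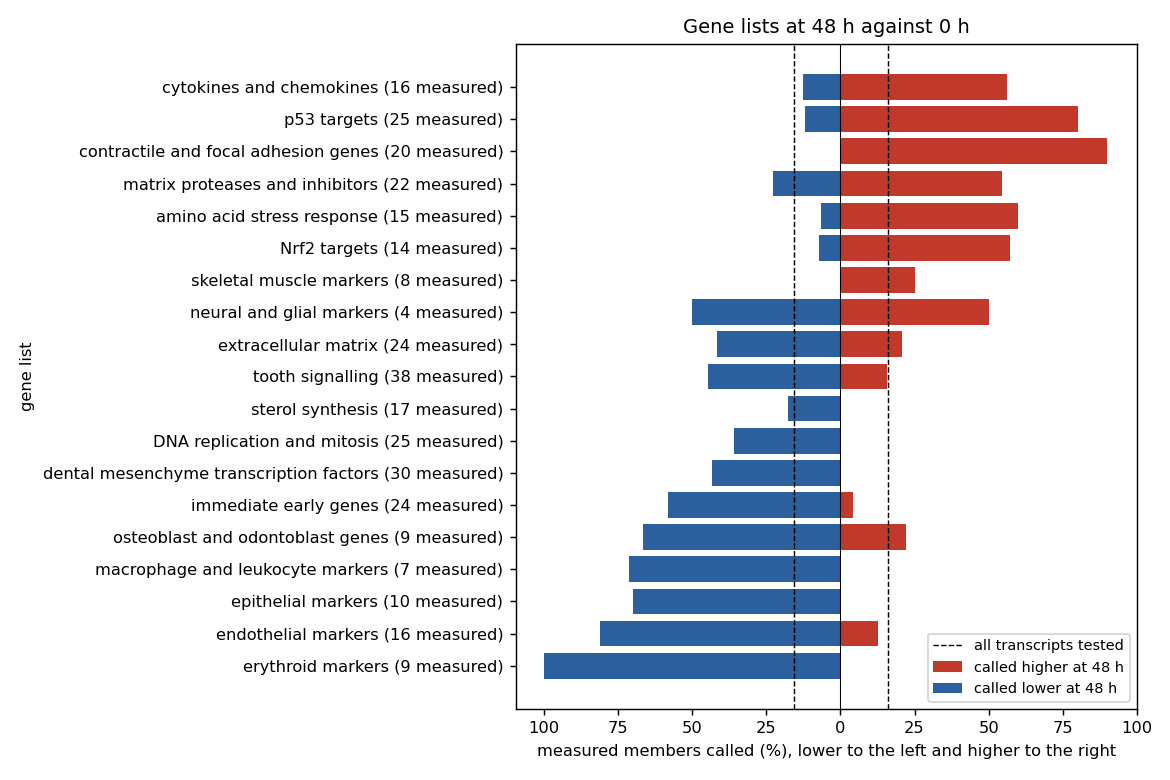
Share of measured members of each gene list called higher (red, to the right) or lower (blue, to the left) at 48 h, in percent, with lists ordered by median log2 change and dashed lines at the shares over all transcripts tested (16.1% higher and 15.8% lower). Contractile genes (90% higher) and p53 targets (80% higher) lie far beyond the line to the right, and erythroid markers (100% lower) far beyond it to the left. The erythroid markers could pass the filter through the 0 h libraries alone, so their share was close to fixed by it.

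The deepest falls of all were in genes of other cell types that the dissected mesenchyme contained. Hbb-bt, an adult beta globin (chr7:103812524-103813996, minus strand), scored 13630, 19210 and 18462 at 0 h and 9, 0 and 25 at 48 h (-11.37, SE 1.01, adjusted p = 5.1e-07). Hbb-bs fell from 36325, 70508 and 50354 to 14, 24 and 79 (-10.67, SE 0.54), and the embryonic globin Hbb-y fell from 18558, 19258 and 40680 to 10, 14 and 17 (-10.73). Globin genes have near-identical copies, so the split of reads between Hbb-bs and Hbb-bt, or between Hba-a1 (-10.40) and Hba-a2 (-11.11), is uncertain. All 9 measured erythroid markers of a list of 13 were lower, and their summed score was 98239 to 151173 at 0 h, 52 to 168 at 48 h and 135979 in the tissue. The filter asks for 1 ppm in at least 2 libraries, which the 0 h libraries alone could meet. With 1 ppm required in each of the 14 libraries none of these markers was left. Their count was thus close to fixed by the filter and describes the measured members alone. Slc4a1, the anion exchanger of red cells, was listed at 0 in all 3 libraries at 48 h, from 179, 324 and 370. In bulk samples such as these, fewer cells of a type and less RNA per cell cannot be told apart.

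Endothelial markers fell in 13 of 16 measured members (of 19), beside a background of 15.8%, with a median of -4.00. With 1 ppm required in each of the 14 libraries 5 were lower and the median was -2.67. Pecam1, an adhesion molecule of vessel walls (chr11:106654217-106715265, minus strand), was switched off from 1984, 2544 and 1953 to 9, 7 and 18 (-7.54, SE 0.31, adjusted p = 5.9e-10). The receptor kinase Tie1 fell from 1148, 1439 and 1282 to 0, 1 and 1 (-9.66), and the cadherin Cdh5 from 1005, 1116 and 1610 to 2, 2 and 5 (-8.33). Cldn5, a tight junction protein, and Robo4, a guidance receptor of vessels, were listed at 0 in every 48 h library, from 688, 745 and 468 and from 301, 489 and 311. Aplnr, the apelin receptor (1641, 1673 and 1147, then 2, 0 and 3, change -9.32), and Rasip1, a regulator of vessel lumen formation (709, 806 and 613, then 2, 1 and 1, change -8.27), are also known from endothelium and were among the largest falls. Flt1 (1.25) and Eng (1.08) were higher, although Eng lost its call without 0 h replicate 1 (0.97) or replicate 2 (0.98). The summed endothelial score was 15234 to 18141 at 0 h and 4788 to 5843 at 48 h. Most of the 48 h sum came from the risen Flt1 (2608, 1836 and 1386) and Eng (1410, 1327 and 1173).

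The other marker sets were smaller. Macrophage and leukocyte markers were lower in 5 of 7 measured members (of 13, 71.4% against 15.8%), such as Mrc1 (-3.25) and C1qa (-3.05), with Lyz2 not called (0.55). Epithelial markers were lower in 7 of 10 measured members (of 17, 70% against 15.8%), and in 5 of 10 without 0 h replicate 1. With 1 ppm required in each of the 14 libraries, 1 epithelial and 3 macrophage and leukocyte markers were lower. Krt15, a basal keratin, scored 3131, 677 and 172 at 0 h and 0, 3 and 0 at 48 h (-8.82, or -7.75 without 0 h replicate 1), and Krt5 lost its call without 0 h replicate 1 (-2.48), 48 h replicate 1 (-3.004) or 48 h replicate 3 (-3.59), and with a pseudocount of 0.1 (-3.62). Of neural and glial markers only 4 of 13 were measured, with S100b (-3.48) and Erbb3 (-2.29) lower and Stmn2 (48, 42 and 44, then 172, 680 and 792, change 3.31) and Tubb3 (2.14) higher. None of the 104 transcripts switched on belonged to a marker list, against 9 of the 118 switched off (4 endothelial and 5 erythroid). Gli1, Ptch1, Ngfr, Alpl, Emilin3 and Col26a1 are on no marker list, nor are Aplnr and Rasip1. The part of the lower marker levels in the other falls was not tested.

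**Figure D4:**
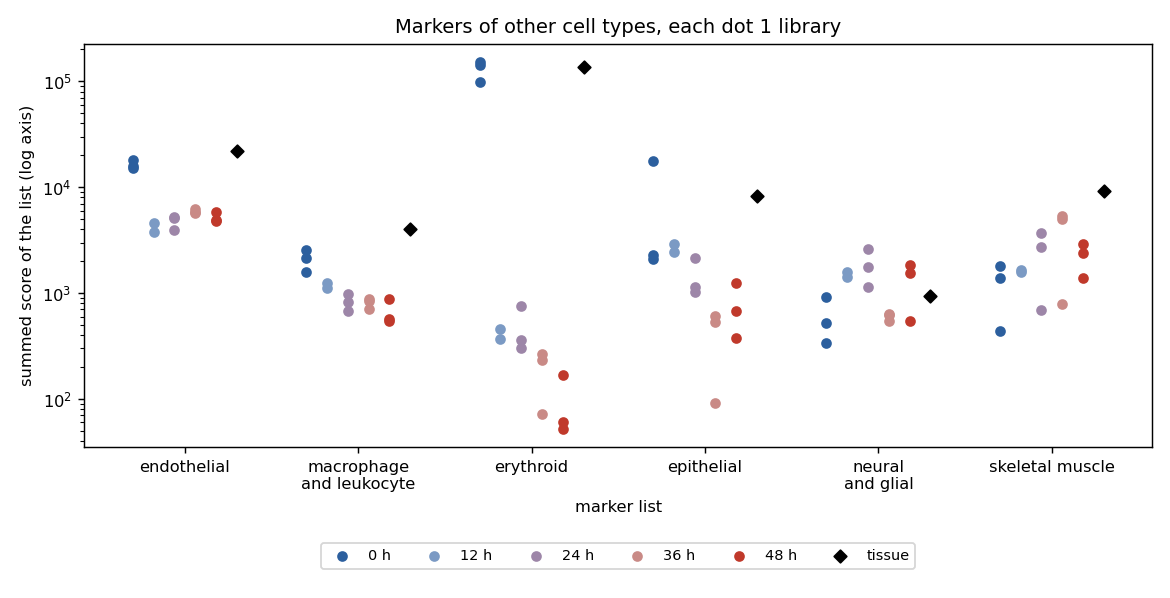
Summed score (log axis) of 6 lists of markers of other cell types in each library, with dots coloured by time point and the tissue as a black diamond. The erythroid sum is 98239 to 151173 at 0 h and 52 to 168 at 48 h, and the epithelial sum of 17696 in 0 h replicate 1 stands above those of the other two libraries at 0 h.

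Most switches were far advanced at the first time sampled in culture. Among the 104 transcripts switched on, 80 (76.9%) had passed 50% of their log2 change by 12 h, 22 (21.2%) first did so at 24 h and 2 at 36 h. By 12 h a median share of 74.2% of the change had been reached, by 24 h 89.1% and by 36 h 98.2%. Among the 118 switched off, 89 (75.4%) had passed it by 12 h, 27 (22.9%) at 24 h and 2 at 36 h, with median shares of 65.3%, 84.8% and 94.6%. In the study, cells cultured for 24 h still formed teeth, at a time when these medians stood at 89.1% and 84.8%. A link of the switches to the loss of tooth formation was not tested. All called transcripts behaved alike in this respect, with 69.6% of those higher and 68.0% of those lower past that point by 12 h, so early change was not shown to be particular to the switches. Klhdc8a, with a mean of 3357 at 12 h, was an early case, and Anxa8, whose means were 212, then 1723, then 3915 at those times, a late one. These shares use the 0 h and 48 h means as end points, and the 12 h mean rests on 2 libraries.

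The tissue library, which took no part in the choice of the switches, was close to the freshly isolated cells. Of the 104 transcripts switched on, 83 scored below the lower quartile in the tissue, 21 lay between it and the median and none lay above the median. Of the 118 switched off, 104 lay above the median, 14 between and none below the lower quartile. On the scale from the 0 h mean to the 48 h mean, the tissue stood at a median of 9.10% of the change for switched on and 0.225% for switched off transcripts. Pvr, a nectin-like adhesion receptor, and the non-coding Mir22hg were the 2 switched on transcripts in which the tissue had passed 50%, and none of those switched off had. The tissue is 1 library, so these positions have no replicate error.

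**Figure D5:**
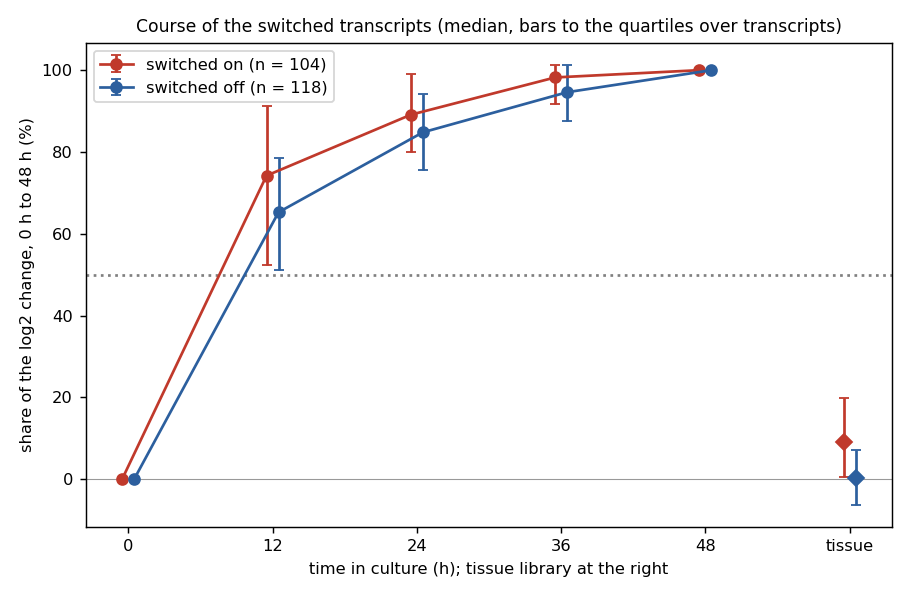
Share of the log2 change from 0 h to 48 h (y axis, in percent) reached at each time in culture (x axis, hours) by the 104 transcripts switched on (red) and the 118 switched off (blue), as medians with bars to the quartiles over transcripts. By 12 h the medians are 74.2% and 65.3%, and in the tissue, at the right, they are 9.10% and 0.225%.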

How the data were processed

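RNA-seq of mDMCs was analysed in libraries grouped by time point from their labels. The authors isolated RNA with an RNeasy kit, made TruSeq libraries, trimmed adaptors, mapped reads with bowtie on transcripts of mm10 and quantified them with RSEM (version 1.1.21 per the submitters' processing notes), and used DESeq2 for their own calls. The authors deposited 1 table of whole-number scores for 12089 transcripts. It is labelled as cpm, but library totals of 21357605 to 21365980 and a common distribution go against that unit, and the step that gave it is not given in the sources used here. No transcript had a maximum below 13, and 14 to 31 per library were at 0. The design had foreseen cpm. Depth is unknown, so no counting interval is given, and a change in total RNA cannot be seen. Whether a value belongs to the transcript or to its gene is not stated. Some rows, such as those of Tkt, Ddb2, Vldlr, Srxn1 and Tnni1, carry the identifier of a non-coding transcript of a coding gene.

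Transcripts were matched to GENCODE M21 on GRCm38 (11973 matched 11960 genes, 116 kept their identifier). Log2(score + 1) of the 14 mDMC libraries was modelled by limma 3.58.1 in R 4.3.3, with a mean for each time point and an intensity trend, in 12079 transcripts that reached 1 ppm of their library's total at least 2 times. Tests were two-sided with Benjamini-Hochberg adjustment over all of them. The step was tested on simulated data. Named genes are the 15 largest rises and 15 largest falls among called transcripts with a gene symbol and without overlap, the 8 transcripts switched on and 8 switched off with the highest 48 h or 0 h mean, up to 4 called members per list and direction, cell type checks and transcripts at the edge of the fold. Other names were picked after their values were seen. The results of a few list members are not reported here. The 19 gene lists and the classes were chosen with earlier results of these data known. Alternatives were other pseudocounts, filters, scaling (trimmed mean of M-values, TMM) and fits, a replicate block and each replicate left out. Summaries used Python 3.11.15 with pandas 2.3.3 and numpy 2.4.6, and plots matplotlib 3.10.9.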

Additional observations from a re-analysis of the deposited data

How the results depend on the processing

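With the upper quartile in place of the median as the high bound, 36 transcripts were switched on and 31 switched off, because fewer could meet it. Counts called higher and lower kept within 1.5 times of the reported 1949 and 1914 in all settings run. They ran from 1899 to 1993 and from 1859 to 1942 with each 0 h or 48 h replicate left out, when 107 to 117 transcripts were switched on and 123 to 128 off. Requiring 1 ppm in each of the 14 libraries gave 1579 and 1550, with 79 switched on and 94 off, since it removes transcripts near 0. Under it the measured erythroid markers all dropped out, 5 endothelial, 3 leukocyte and 1 epithelial markers were lower, 5 genes of the amino acid stress response were higher, no skeletal muscle marker was called, the median of the matrix proteases was 0.95, and 2 cytokines were higher with a median of -0.05 in place of 2.96. Without an adjustment of p the counts were 1954 and 1920. Averaging 36 h replicates 1 and 2, which differ by an SD of 0.075 (log2) against 0.186 to 0.395 in other pairs, gave 1951 and 1913, an alternative chosen after seeing the data. Same-numbered 0 h and 48 h libraries did not deviate together in every pair (correlations up to 0.107), and the replicate block gave 1959 and 1917, with 104 switched on and 118 off. No direction reversed for a named gene. Depth is unknown, and scores at 0 or 127101 bound what could be measured.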
